A study of Mus musculus with 9 samples.

Results

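The genes described here are 10 genes of the T cell receptor complex and its coreceptors, chosen by symbol out of 20618 genes with deposited expression values: Cd3d, Cd3e, Cd3g, Cd247, Cd8a, Cd8b1, Cd2, Cd5, Cd6 and Lck. Their RNA was measured by paired-end sequencing in CD8+ T cells, the cytotoxic T lymphocytes, of wild type mice. The cells spent 24 h in 1 of 3 media, and each medium had 3 libraries. The glucose medium held 2 mM glucose, the inosine medium held 2 mM inosine, and the third medium held 2 mM inosine together with hypoxanthine, whose dose carries no readable unit in the labels and is not given here. All media contained 10% dialyzed fetal bovine serum, live cells (about 80%) were sorted before RNA was taken, and the labels give all libraries the same batch. Inosine is a purine nucleoside, a ribose sugar joined to the base hypoxanthine. The labels do not say if the replicates of a medium are separate mice or cultures. The p-values thus measure spread among libraries, which may be technical.

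A T cell recognises peptide on MHC molecules through a receptor whose variable alpha and beta chains have almost no intracellular part. Signals leave through the CD3 delta, epsilon and gamma chains and the zeta chain (Cd247), which carry tyrosine motifs, and the zeta chain joins last and limits how many complete receptors reach the surface. CD8, made of an alpha and a beta chain on most conventional CD8+ T cells, binds MHC class I and brings the kinase Lck, which phosphorylates those motifs. CD2 is an adhesion and costimulatory receptor, and CD5 and CD6 are related scavenger-type receptors that tune receptor signalling.

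Levels are FPKM, which divide a gene's fragments by its length and by the size of the library, so they can be set side by side between genes. Reads recovered from the deposited values, with estimates for genes not solved uniquely, totalled 30948343 to 49875740 per library. The members, all solved uniquely, had 2614 to 33422 reads each in any library. CD8+ T cell markers were high, with Cd3e at 78.7 FPKM or above and Cd8a at 69.7 or above in every library. In contrast, CD4 T cell markers summed to 4.49 to 6.74 FPKM (mostly Zbtb7b), myeloid markers to 2.21 to 3.86, B cell markers to 1.32 to 1.84, red cell markers to 0.128 to 0.437 and natural killer markers to 0.0773 to 0.241. None of the measured genes on these lists, or on the dendritic (0 to 2.25) and gamma delta lists (1 of 4 measured, at most 0.124), was called in any comparison. Of the receptor's own constant segments 7 genes were looked for by symbol, and 0 of them were found among the genes with values. Mitochondrial genes took 4.03% to 6.5% of all FPKM, with the highest shares in inosine replicate 2 and in inosine plus hypoxanthine replicate 2.

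The start regions of the 4 signalling chains are shown because these chains work in 1 complex and yet did not move alike. Each line gives the 300 bases from 250 before to 50 after the start site, 5′ to 3′ on the gene's strand, from RefSeq on GRCm38.p6 (mm10). Capitals mark matches on either strand to 6 motifs. These are AGGAAG for ETS factors, CAGGTG for E proteins at an E-box, TGTGGT for RUNX factors, AGATAA for GATA factors, TTCAAAG for TCF and LEF factors and TATAAA for a TATA box. Cd3d lies at chr9:44981536-44981835 on the plus strand, Cd3g at chr9:44980382-44980681 and Cd3e at chr9:45009562-45009861 on the minus strand, and Cd247 at chr1:165788431-165788730 on the plus strand. The Cd247 region lies inside the span of the gene (chr1:165779952-165871153), and a start site at the outer end of that span was not examined.
Cd3d: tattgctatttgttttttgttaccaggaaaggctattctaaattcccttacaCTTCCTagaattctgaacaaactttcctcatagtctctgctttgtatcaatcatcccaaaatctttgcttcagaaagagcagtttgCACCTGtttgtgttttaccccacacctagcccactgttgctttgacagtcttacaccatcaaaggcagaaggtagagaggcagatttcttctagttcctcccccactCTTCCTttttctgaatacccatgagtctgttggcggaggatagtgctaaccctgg
Cd3g: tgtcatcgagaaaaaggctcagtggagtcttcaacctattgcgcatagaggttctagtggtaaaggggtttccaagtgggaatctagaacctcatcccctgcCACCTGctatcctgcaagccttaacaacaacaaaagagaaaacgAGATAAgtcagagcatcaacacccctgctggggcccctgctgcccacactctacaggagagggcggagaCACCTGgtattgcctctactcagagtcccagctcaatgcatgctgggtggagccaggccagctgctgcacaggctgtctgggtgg
Cd3e: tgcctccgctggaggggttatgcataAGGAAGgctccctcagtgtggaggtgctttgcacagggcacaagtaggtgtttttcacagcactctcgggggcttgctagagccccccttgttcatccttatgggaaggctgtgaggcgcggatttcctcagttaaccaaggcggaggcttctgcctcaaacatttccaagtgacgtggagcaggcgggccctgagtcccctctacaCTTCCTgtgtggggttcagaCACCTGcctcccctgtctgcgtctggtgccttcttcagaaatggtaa
Cd247: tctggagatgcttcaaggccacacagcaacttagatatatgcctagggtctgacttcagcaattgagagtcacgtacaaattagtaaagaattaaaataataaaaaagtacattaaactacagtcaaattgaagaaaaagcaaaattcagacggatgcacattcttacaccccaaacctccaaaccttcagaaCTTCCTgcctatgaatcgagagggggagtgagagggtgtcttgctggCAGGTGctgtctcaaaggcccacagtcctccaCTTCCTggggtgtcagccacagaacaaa
Each of the 4 regions held at least 1 E-box match, and Cd3d, Cd3e and Cd247 each held a pair of ETS matches. Among the 8 start regions that the table holds for 7 members (Cd3d, Cd3e, Cd3g, Cd247, Cd8a, Cd5 and Lck, which has a pair), 7 held the E-box letters and 6 the ETS letters, while 20.2% and 35.4% of all 32851 start regions do. RUNX letters were in 1 of the 8 (16.8% of all), GATA letters in 1 (11.2%), and TCF/LEF (5.14%) and TATA box letters (13.6%) in none. Cd247 thus shared ETS and E-box letters with Cd3d and Cd3e, and any part of the letters in the levels was not tested. A match is a description of the letters and not of binding.

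With hypoxanthine added to inosine, 7 of the 10 genes rose (Cd3d, Cd3e, Cd3g, Cd8a, Cd8b1, Cd5 and Cd6), Lck fell, and Cd2 and Cd247 were not called in FPKM. The test was limma on log2(FPKM + 1), fitted over all genes and libraries, and a gene counted as called when its adjusted p (Benjamini-Hochberg over all genes) was under 0.05. Across all genes 21.3% were called in this comparison, 11.7% higher and 9.59% lower, and the members' median log2 difference was 0.62 against 0.00 over all genes. Against glucose the same 7 rose and Lck fell, beside 20.3% of all genes called, 10.8% higher and 9.55% lower, with a median of 0.61 against 0.00. Both comparisons use the same 3 libraries with hypoxanthine and are not independent. The shares over all genes, here and below, include genes at or near 0 FPKM, while every member had at least 2614 reads in each library. Between 16245 and 17217 of the 20618 genes were above 0 in a library. After genes averaging under 1 FPKM were dropped, 3932 were called against inosine and 3832 against glucose. The share among expressed genes alone is not given here and may be higher. Inosine against glucose gave 0 called members of 10, beside 0.0097% of all genes, and 0 members had an unadjusted p under 0.05; limma voom also called 0.
The counts depend on single libraries. Against inosine, 5 members were called when inosine plus hypoxanthine replicate 1 or replicate 3 was left out. Against glucose, 4 were called without glucose replicate 2, glucose replicate 3 or inosine plus hypoxanthine replicate 3, and 5 without inosine plus hypoxanthine replicate 1. Cd3d, Cd3e, Cd3g and Cd8a were called higher under each of the 17 other settings in both comparisons.

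**Figure D1:**
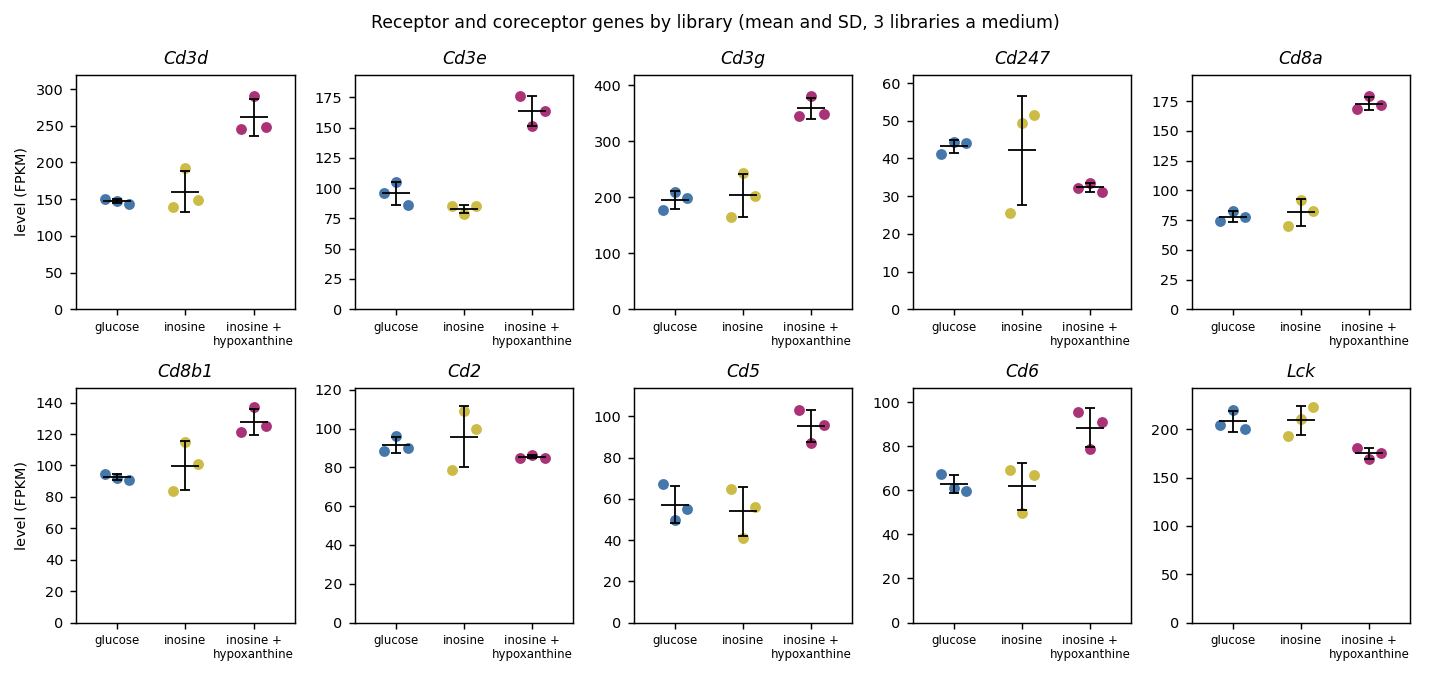
FPKM of each gene (vertical axes, linear from 0) in the 9 libraries, by medium, with points for libraries and bars for the mean and SD of 3 libraries. Cd3d, Cd3e, Cd3g, Cd8a, Cd8b1, Cd5 and Cd6 sit higher in all 3 libraries with hypoxanthine than in the other 6, while Lck sits lower and Cd247 and Cd2 do not rise. The share of all genes that separate in this way is not given here.

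The 3 CD3 chains rose together. Cd3e, which pairs with either the delta or the gamma chain, was at 95.7, 105 and 86.3 FPKM in glucose, 85.0, 78.7 and 84.8 in inosine, and 176, 151 and 164 with hypoxanthine. Its libraries with hypoxanthine lay above the other 6, and those in inosine all lay below those in glucose. The mean with hypoxanthine was 164 ± 12.3 (SD, n = 3), 1.97-fold that in inosine (82.8 ± 3.55) and 1.71-fold that in glucose (95.7 ± 9.45), with log2 differences of 0.97 ± 0.09 (SE) and 0.77 ± 0.09 and limma adjusted p of 0.00019 and 0.00063. The lower level in inosine than in glucose, -0.20 ± 0.09 on the log2 scale, had an unadjusted limma p of 0.05 and an adjusted p of 1. Cd3d was at 150, 148 and 144 FPKM in glucose, 140, 192 and 149 in inosine, and 246, 291 and 248 with hypoxanthine. Inosine replicate 2 was the highest of the 6 libraries without hypoxanthine and still below the lowest with it. Its log2 difference was 0.71 ± 0.12 against inosine (limma adjusted p = 0.0038) and 0.82 ± 0.12 against glucose (0.0021).

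Cd3g, the gamma chain, was the most abundant member with hypoxanthine. It was at 177, 209 and 199 FPKM in glucose, 165, 243 and 202 in inosine, and 346, 381 and 349 with hypoxanthine, again with no overlap. The log2 difference was 0.83 ± 0.13 against inosine and 0.88 ± 0.13 against glucose, with limma adjusted p of 0.0029 and 0.0023. Cd3g (chr9:44969572-44980431) and Cd3d (chr9:44981769-44987052) run in opposite directions, with start sites 1355 bases apart and 1337 bases between the genes, and Cd3e (chr9:44998735-45009663) lies 11682 bases from Cd3d. Both genes had their highest value of each inosine-containing medium in replicate 2, the library of that medium with the most mitochondrial RNA. Their part in the result was not tested; without these 2 libraries, a setting chosen after seeing the data, the 7 members called higher were still called in both comparisons, and Lck was not (limma adjusted p = 0.13 against inosine and 0.1 against glucose).

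The zeta chain did not rise with its partners, and whether it was called lower depended on the scale. Cd247 was at 41.3, 44.5 and 44.0 FPKM in glucose, 25.5, 49.4 and 51.6 in inosine, and 32.3, 33.6 and 31.2 with hypoxanthine. The libraries with hypoxanthine lay below all 3 in glucose and below 2 of 3 in inosine, but above inosine replicate 1. In FPKM the log2 difference was -0.31 ± 0.22 against inosine (limma adjusted p = 0.4, 95% interval -0.82 to 0.20) and -0.41 ± 0.22 against glucose (0.25, interval -0.92 to 0.10).
Reads gave another picture of the same libraries. In RPM, its recovered reads scaled to the same library total, Cd247 had 93.5, 101 and 102 in glucose, 89.7, 112 and 116 in inosine, and 74.3, 76.3 and 74.3 with hypoxanthine. On this scale the 3 libraries with hypoxanthine were the lowest of the 9, and inosine replicate 1 lay above them. Limma voom on the recovered reads gave -0.49 ± 0.10 against inosine (adjusted p = 0.0048) and -0.40 ± 0.10 against glucose (adjusted p = 0.016), and the authors' deposited table gave -0.55 (adjusted p = 0.00013) and -0.42 (3.8e-07). Cd247 in inosine replicate 1 was the value out of step: its log2 ratio of FPKM to RPM was -1.81, against -1.25 to -1.17 in the other 8 libraries. The SD of that quantity over the 9 libraries was 0.21 for Cd247, 0.0065 to 0.014 for the other 9 members, and 0.0075 in the median of 4909 well-covered genes. Apart from listed genes, reads were searched only near an estimate made from FPKM. An unlisted gene as far out of step as Cd247 could thus hardly enter those 4909. How common such genes are was not tested. Leaving inosine replicate 1 out of the FPKM fit gave -0.63 against inosine (limma adjusted p = 0.001) and -0.41 against glucose (0.003). The 3′ end of the gene (chr1:165779952-165871153) overlaps Pou2f1 on the opposite strand, and since the strand of the libraries is not stated, reads in the overlap cannot be told apart; Pou2f1 was at 2.30 FPKM on average and was not called (0.14 against inosine, limma adjusted p = 0.44).

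**Figure D2:**
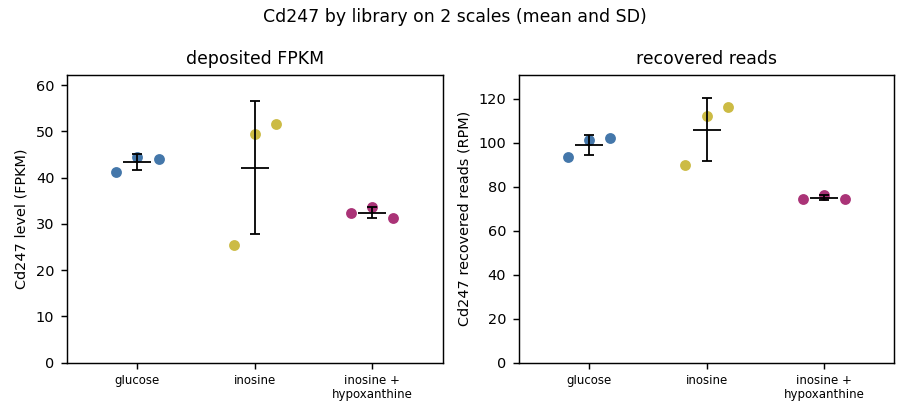
Cd247 in the 9 libraries as deposited FPKM (left) and as recovered reads in RPM (right), both axes from 0, with points for libraries and bars for the mean and SD of 3. Inosine replicate 1 is the lowest library in FPKM at 25.5, while in RPM it lies at 89.7, above the 74.3 to 76.3 with hypoxanthine.

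Both CD8 chains rose, with the larger fold for the alpha chain. Cd8a, whose product carries the tail that holds Lck, was at 73.8, 82.6 and 77.2 FPKM in glucose, 69.7, 91.9 and 83.0 in inosine, and 168, 179 and 172 with hypoxanthine. All 3 libraries with hypoxanthine lay above the other 6, with none close to them. The mean of 173 ± 6.02 (SD, n = 3) was 2.12-fold that in inosine and 2.22-fold that in glucose, the largest fold of any member, with log2 differences of 1.09 ± 0.10 and 1.14 ± 0.10 and limma adjusted p of 0.00019 and 0.00016. Its place among all genes ordered by mean FPKM moved from 822 in glucose and 780 in inosine to 308 with hypoxanthine. Cd8b1, the beta chain, was at 94.8, 92.1 and 91.0 FPKM in glucose, 83.8, 115 and 101 in inosine, and 121, 137 and 125 with hypoxanthine. Its groups did not overlap either, and inosine replicate 2 came closest to the libraries with hypoxanthine. The log2 difference was 0.36 ± 0.11 against inosine (limma adjusted p = 0.044) and 0.46 ± 0.11 against glucose (0.018), a 1.28-fold and 1.38-fold rise. The call against inosine was lost without any single library other than inosine replicate 2 (limma adjusted p 0.062 to 0.13). It was also lost with median-of-ratios scaling (0.088), with only the 2 groups compared (0.11) and without the trend and robust settings (0.057). The call against glucose was lost without glucose replicate 2 or 3 or inosine plus hypoxanthine replicate 2 or 3 (0.053 to 0.063). In the authors' deposited table Cd8b1 had an adjusted p of 0.074 against inosine. Cd8b1 (chr6:71322788-71337492) and Cd8a (chr6:71373427-71379171) have 35934 bases between them.

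Ratios of FPKM within a library set the chains against each other without the library's scale. Cd8a to Cd8b1 was 0.778, 0.897 and 0.848 in glucose, 0.832, 0.800 and 0.824 in inosine, and 1.38, 1.31 and 1.38 with hypoxanthine. In FPKM the alpha chain was thus the lower of the 2 in all 6 libraries without hypoxanthine and the higher in all 3 with it. Which chain is higher depends on the gene lengths used. In recovered reads Cd8a stood above Cd8b1 in each medium, with mean log2 ratios of 0.83 in glucose, 0.79 in inosine and 1.52 with hypoxanthine. On either scale the log2 ratio was higher by 0.73 than in inosine and by 0.69 than in glucose. Cd247 to Cd3e was 0.431, 0.423 and 0.510 in glucose, 0.300, 0.628 and 0.608 in inosine, and 0.184, 0.222 and 0.190 with hypoxanthine, again without overlap. The log2 ratio differed by -1.29 against inosine and -1.19 against glucose, and by -1.48 and -1.17 on recovered reads. Each of these 4 contrasts had an exact two-sided permutation p of 0.10, the smallest that 3 against 3 libraries allow, and 0.22 after Benjamini-Hochberg adjustment over 9 ratio tests.
Cd3g to Cd3e did not separate the media, with 1.84, 1.99 and 2.31 in glucose, 1.95, 3.09 and 2.39 in inosine, and 1.97, 2.52 and 2.13 with hypoxanthine. Its exact permutation p was 0.70 against inosine and 0.60 against glucose. Between inosine and glucose the exact permutation p was 0.60 for Cd8a to Cd8b1, 0.30 for Cd3g to Cd3e and 0.80 for Cd247 to Cd3e.

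**Figure D3:**
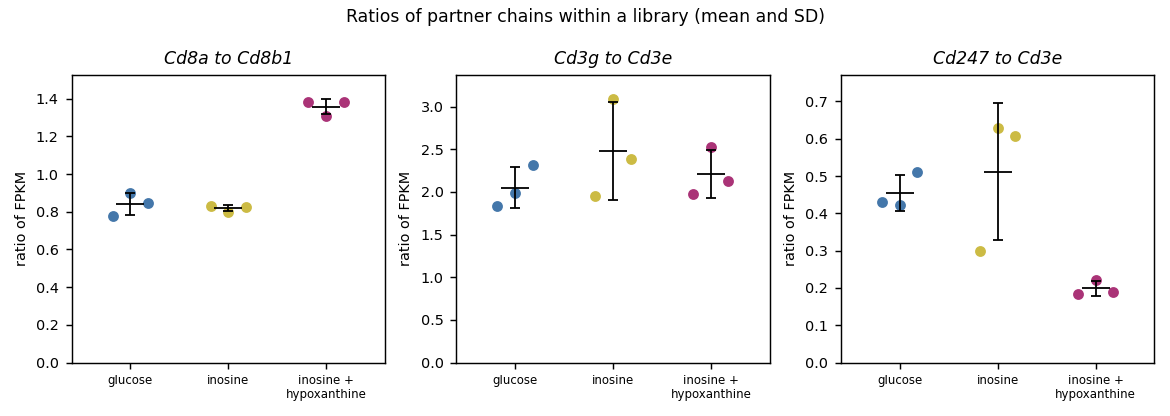
Ratio of FPKM of partner chains within each library (vertical axes from 0), by medium, with points for libraries and bars for the mean and SD of 3. Cd8a to Cd8b1 lies at 1.31 to 1.38 with hypoxanthine and at or below 0.897 elsewhere, Cd247 to Cd3e lies at or below 0.222 with hypoxanthine and at or above 0.300 elsewhere, and Cd3g to Cd3e overlaps.

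Lck (chr4:129548344-129573641), the Src-family kinase that starts receptor signalling, fell by a small amount. It was at 204, 220 and 200 FPKM in glucose, 193, 211 and 223 in inosine, and 181, 169 and 175 with hypoxanthine. All 3 libraries with hypoxanthine lay below the other 6. The mean of 175 ± 6.03 (SD, n = 3) was 0.835 times that in inosine and 0.842 times that in glucose, with log2 differences of -0.26 ± 0.07 and -0.25 ± 0.07 and limma adjusted p of 0.039 and 0.046. These calls were close to the threshold. Against inosine only leaving out glucose replicate 2 or inosine replicate 1 kept the call among the 9 libraries left out in turn, and against glucose only leaving out inosine replicate 1 or 2, with limma adjusted p of 0.05 to 0.14 for the others. With only the 2 groups compared, limma gave an adjusted p of 0.067 against inosine, and without the 2 libraries of highest mitochondrial share 0.13 against inosine and 0.1 against glucose. The authors' deposited table gave -0.30 (adjusted p = 0.0096) and -0.27 (0.00061). Cd8a and Lck were about level with hypoxanthine, at 173 and 175 FPKM, whereas Lck was at 208 and 209 FPKM and Cd8a at 77.9 and 81.5 in glucose and inosine.

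The neighbouring genes Cd5 and Cd6 rose with similar patterns across libraries. Cd5, a receptor that dampens antigen receptor signals, was at 67.1, 49.5 and 54.8 FPKM in glucose, 64.5, 41.0 and 56.1 in inosine, and 103, 87.1 and 95.7 with hypoxanthine. Replicate 2 was the lowest library of each medium. The log2 difference was 0.83 ± 0.17 against inosine (limma adjusted p = 0.0086) and 0.73 ± 0.17 against glucose (0.016), the latter lost without glucose replicate 2 or 3 or inosine plus hypoxanthine replicate 1 or 3 (0.056 to 0.058). Cd6 was at 67.5, 61.1 and 59.7 FPKM in glucose, 69.2, 49.7 and 66.9 in inosine, and 95.8, 78.9 and 90.9 with hypoxanthine, with no overlap. The log2 difference was 0.52 ± 0.13 against inosine (limma adjusted p = 0.022) and 0.49 ± 0.13 against glucose (0.03). The first call was lost without inosine plus hypoxanthine replicate 1 or 3 (limma adjusted p = 0.081 for both) or with only the 2 groups compared (0.064), and the second without those libraries or glucose replicate 2 or 3 (0.083 to 0.1). Cd5 (chr19:10718107-10739026) and Cd6 (chr19:10789339-10830062) lie 50312 bases apart. A430093F15Rik between them rose by 1.18 on the log2 scale against inosine (limma adjusted p = 0.00065). On the far side of Cd6, Slc15a3 (0.32, limma adjusted p = 0.018) and Tmem132a (0.12, 0.035) rose from low levels. Prpf19 (-0.29, 0.01) and Tmem109 (-0.36, 0.02) on that side fell. Of 9 other measured genes within 100 kb of the pair, 3 were called higher and 2 lower. Over all genes 11.7% were called higher and 9.59% lower. These neighbours are named after their values were seen.

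Cd2 (chr3:101275908-101287939) showed no difference that passed the test. It was at 88.7, 96.4 and 90.2 FPKM in glucose, 78.6, 109 and 100 in inosine, and 85.1, 86.3 and 84.8 with hypoxanthine. The libraries with hypoxanthine lay below all 3 in glucose and within the range of those in inosine. The log2 difference was -0.15 ± 0.11 against inosine (limma adjusted p = 0.4, 95% interval -0.40 to 0.10) and -0.10 ± 0.11 against glucose (0.58, interval -0.35 to 0.15). Only without inosine replicate 1 was Cd2 called against inosine, at -0.29 (limma adjusted p = 0.022).

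**Figure D4:**
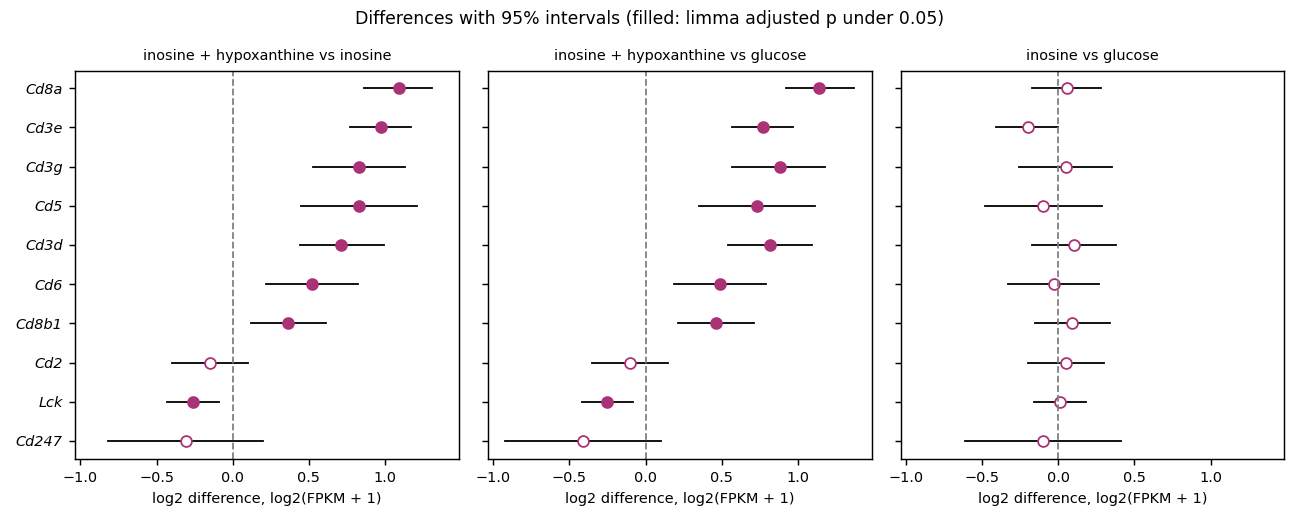
Log2 differences of the 10 genes on the log2(FPKM + 1) scale (horizontal axes) with 95% intervals in the 3 comparisons, filled where the limma adjusted p was under 0.05. Both comparisons with hypoxanthine show 7 genes to the right and Lck to the left of 0, and inosine against glucose shows no filled point.

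Inosine in place of glucose left the 10 genes near their level in glucose, within the precision of 3 libraries. Log2 differences ran from -0.20 (Cd3e) to 0.10 (Cd3d), with a median of 0.03, and limma adjusted p was 1 for each. The 95% intervals reached at most from -0.61 to 0.41 for Cd247 and from -0.48 to 0.38 over the other 9 genes. Differences within a gene's own interval were thus not excluded. The interval of Lck was -0.16 to 0.18. The libraries in inosine spread more than those in glucose for most members. Inosine replicate 1 was the lowest of its medium for Cd3d, Cd3g, Cd247, Cd8a, Cd8b1, Cd2 and Lck and the highest for Cd3e, Cd5 and Cd6. Replicate 2 stood at the other end for Cd3d, Cd3g, Cd8a, Cd8b1, Cd2, Cd3e, Cd5 and Cd6.

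The order of the levels changed with hypoxanthine. In glucose Lck (208 FPKM on average) and Cd3g (195) stood highest and overlapped, followed by Cd3d (148), then Cd3e (95.7), Cd8b1 (92.7) and Cd2 (91.7), whose neighbours overlapped, then Cd8a (77.9), Cd6 (62.7), Cd5 (57.2) and Cd247 (43.3). Inosine kept Lck, Cd3g and Cd3d first and Cd247 last. With hypoxanthine Cd3g (359) and Cd3d (261) stood apart at the top, Lck (175), Cd8a (173) and Cd3e (164) followed with overlap between neighbours, and Cd8b1 (128), Cd5 (95.1), Cd6 (88.5), Cd2 (85.4) and Cd247 (32.4) came after. The gap between the most and the least abundant member was thus widest in the medium with hypoxanthine.

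Genes on a list of signalling close to the receptor moved in both directions. Of 25 proximal signalling genes, 10 rose, 2 fell (Lat and Pag1) and 13 were not called against inosine, with a median of 0.12; against glucose 7 rose, 4 fell (Lat, Pag1, Was and Unc119) and 14 were not called, with a median of 0.11. Over all genes, those near 0 FPKM included, 11.7% rose and 9.59% fell against inosine, and 10.8% and 9.55% against glucose. The part of the list that fell against inosine was near that share. The list was not set against expressed genes alone. Zap70, the kinase that binds phosphorylated CD3 and zeta motifs, was at 62.1, 58.8 and 56.1 FPKM in glucose, 61.2, 47.8 and 62.1 in inosine, and 85.1, 74.1 and 82.2 with hypoxanthine. It lay higher in all 3 libraries with hypoxanthine, by 0.50 ± 0.11 on the log2 scale against inosine (limma adjusted p = 0.012). Lat, the membrane scaffold that Zap70 phosphorylates, was at 196, 175 and 177 FPKM in glucose, 179, 183 and 193 in inosine, and 141, 139 and 145 with hypoxanthine. Like Lck it was lower in all 3 libraries with hypoxanthine, by -0.38 ± 0.07 against inosine (limma adjusted p = 0.0044). Pag1, an adaptor that recruits the Lck inhibitor Csk and so does not carry the signal itself, was low in all media. It fell by 0.55 (limma adjusted p = 0.0085). Sh2d1a, the adaptor SAP, rose by 0.77 (0.002) and Fyb, an adaptor linked to adhesion, by 0.57 (0.002), while Lcp2, the adaptor SLP-76, had 87.8 FPKM with hypoxanthine and 82.9 in inosine (0.08, limma adjusted p = 0.44). Zap70, Pag1, Was and Unc119 are named after their values were seen.

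Among 14 genes known to restrain receptor signalling, 6 rose, 2 fell and 6 were not called in each comparison with hypoxanthine, with a median log2 difference of 0.21 in both. The share over all genes, those near 0 FPKM included, was 11.7% higher and 9.59% lower against inosine and 10.8% and 9.55% against glucose. The 2 falling genes of 14 are near that share, but were not set against expressed genes alone. Sla, an adaptor that promotes loss of the receptor's zeta chain, was at 21.8, 26.3 and 29.1 FPKM in glucose, 27.2, 31.7 and 25.3 in inosine, and 90.4, 88.2 and 89.3 with hypoxanthine. It was the gene on this list with the largest difference against inosine, 1.64 ± 0.11 on the log2 scale (limma adjusted p = 5.5e-05). Dok2, an adaptor that dampens signalling downstream of the receptor, fell from 87.5 ± 2.27 FPKM in inosine to 45.6 ± 0.682 with hypoxanthine (SD, n = 3; -0.92 ± 0.05, limma adjusted p = 2.2e-05), and Sit1, a membrane adaptor, from 25.1 ± 3.46 to 11.7 ± 0.495 (-1.03 ± 0.09, 0.00018). Ptpn6, the phosphatase SHP-1 that can act with CD5, rose by 0.57 (limma adjusted p = 0.0006), and Ptprc, the phosphatase CD45 that activates Lck but can also restrain it, by 0.34 (0.018).

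**Figure D5:**
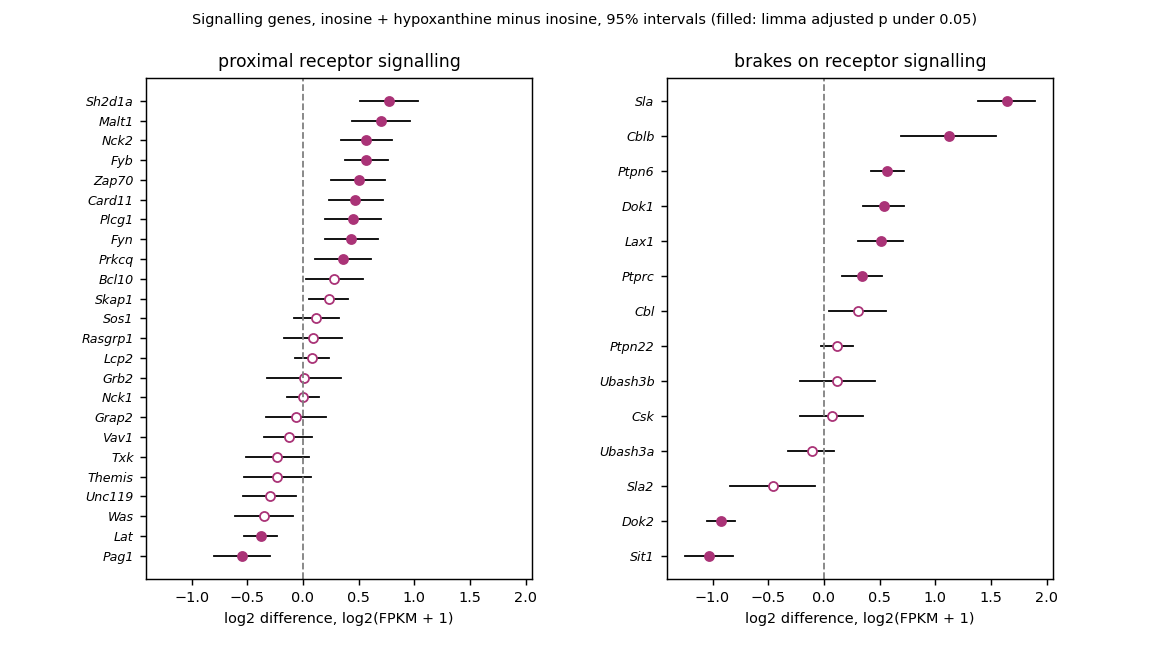
Log2 differences on the log2(FPKM + 1) scale between inosine plus hypoxanthine and inosine, with 95% intervals, for the proximal signalling genes other than 1 not reported here (left) and 14 genes that restrain signalling (right), filled where the limma adjusted p was under 0.05. Points lie on both sides of 0 in each list, with Sla furthest to the right at 1.64 and Sit1 furthest to the left at -1.03.

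Of 8 genes listed as ligands and partners of CD2, CD5 and CD6, 7 were measured, all but Cd58. The list also holds the receptors Cd28 and Cd4, and Cd4 averaged only 0.0250 FPKM. Against inosine Alcam, the ligand of CD6, rose from 9.68 ± 1.42 to 17.0 ± 0.744 FPKM (SD, n = 3; 0.76 ± 0.10, limma adjusted p = 0.0014) and Cd28, the costimulatory receptor, from 33.2 ± 3.62 to 52.6 ± 1.54 (0.65 ± 0.12, 0.0056). Pstpip1, which binds the tail of CD2, fell by 0.25 (limma adjusted p = 0.027), and 4 were not called, among them Cd48, the mouse ligand of CD2, with 94.6 FPKM in inosine and 89.0 with hypoxanthine (0.61). Against glucose Alcam and Cd28 rose and 5 were not called. Of 13 transcription factors known to act on receptor genes, Tcf7 (0.54, limma adjusted p = 0.016) and Ets1 (0.40, 0.024) rose against inosine and 11 were not called, including Cbfb (0.23, 0.079), Satb1 (0.35, 0.07) and Ikzf1 (0.08, 0.62). Against glucose Ets1 rose (limma adjusted p = 0.039) and 12 were not called. For the transcription factors these counts are no more than the share over all genes, so they are no result about that list. Of all genes 21.3% were called against inosine and 20.3% against glucose. Of the 7 measured genes listed as ligands and partners, 2 rose and 1 fell against inosine, and 2 rose against glucose. Whether the list of ligands and partners differs from genes at large was not tested.

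Genes whose pattern over the 9 libraries was most like that of a member were sought among the 6814 genes that averaged 5 FPKM or more, by Pearson's r of log2(FPKM + 1). The libraries fall into 3 media, so r mostly measures the gap between media and is a description. Cd3e was most like Mcrip1 (0.993), E2f2 (0.993), a transcription factor of the cell cycle, and Stmn1 (0.992), which binds tubulin. Cd8a was most like Lsp1 (0.997), an actin-binding protein of leukocytes, Fasl (0.996), the death ligand of cytotoxic cells, and Slfn2 (0.996). Cd5 was most like Pnrc1 (0.994), Nfkb2 (0.993), an NF-kappa-B subunit, and Kcnn4 (0.993), a potassium channel. Mean FPKM in glucose, inosine and inosine plus hypoxanthine was 120, 105 and 212 for Stmn1, 52.3, 59.4 and 145 for Slfn2, and 40, 38 and 85.5 for Nfkb2.

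In bulk samples a lower level cannot be told apart from fewer cells that express the gene. The authors' deposited table gave the same direction as limma for all 10 genes in both comparisons with hypoxanthine, with log2 differences of 1.04 for Cd8a and 0.94 for Cd3e against inosine and of 1.13 and 0.75 against glucose.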

How the data were processed

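RNA of 9 libraries was compared between 3 media. The tools named in the submitters' processing notes are DESeq2 1.38.3, Subread 2.0.1, featureCounts and HISAT2, with mm10 as the genome and no role given for each. For each gene and library the authors deposited an FPKM, a unit read from the values. They also hold the authors' group mean signal, a normalized read count. The authors' deposited log2 fold changes were turned here so that positive means higher with hypoxanthine. Beside them stand p-values, raw and adjusted, that the authors computed.

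All 20618 genes were fitted without a filter as log2(FPKM + 1) in limma 3.58.1 (R 4.3.3; robust, with a trend), with 1 mean per medium and 6 residual degrees of freedom. Fold changes on this scale understate those of low genes. Whole reads were recovered from the deposited group means and FPKM for 19646 genes (95.29%), within 1e-06 of a whole number, and for all 10 members. Where no single solution was found, the nearest solution or an estimate scaled from FPKM was used. Limma voom was run on all genes with any reads, these estimates included. Depth, with the estimates included, was 30948343 to 49875740 reads.

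The members, gene lists, tests and settings were chosen with earlier results of these data known. Of other lists, named genes are up to 3 with the smallest adjusted p against inosine and up to 3 with the highest mean FPKM. Settings tried were a pseudocount of 0.1, a minimum mean of 1 FPKM, another scaling, only 2 groups, no trend, a replicate block, voom and leaving out libraries. Scripts were tested on simulated data. Strand is not given in the sources used here. The values of 1 listed signalling gene are not reported here.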

Additional observations from a re-analysis of the deposited data

How the results depend on the processing

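Each medium had 3 libraries, and the members had at least 2614 reads in each library. Whether depth or the spread between libraries limited the calls was not tested. In both comparisons with hypoxanthine no member changed direction under any of the 17 settings. Members called against inosine were 5 with only the 2 groups compared and 5 to 9 when each library was left out in turn, and against glucose 4 to 9. Genes called when each library was left out ranged from 2757 to 4487 against inosine and from 2677 to 4879 against glucose, both lowest without inosine plus hypoxanthine replicate 3.

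Inosine against glucose had 2 called genes, none of them a member. This became 0 with a minimum mean of 1 FPKM, 0 with only the 2 groups, 0 without trend and robust settings, 0 with limma voom, 1 with the replicate block, 1 without the 2 libraries of highest mitochondrial share (chosen after seeing the data) and 1 to 7 when each library was left out. Uncalled member differences in this comparison changed sign. Without the 2 libraries of highest mitochondrial share they were -0.03 for Cd3d, -0.09 for Cd3g, -0.03 for Cd8a, -0.01 for Cd8b1, -0.05 for Cd2, 0.08 for Cd5 and 0.12 for Cd6, and with limma voom 0.09 for Cd247. Leaving out each library gave -0.03 to 0.20 for Cd3d, -0.09 to 0.19 for Cd3g, -0.27 to 0.22 for Cd247, -0.03 to 0.16 for Cd8a, -0.01 to 0.21 for Cd8b1, -0.05 to 0.19 for Cd2, -0.24 to 0.08 for Cd5, -0.12 to 0.12 for Cd6 and -0.04 to 0.07 for Lck. Of the ratios, leaving out each library gave -0.09 to 0.01 for Cd8a to Cd8b1 and -0.08 to 0.45 for Cd247 to Cd3e in inosine against glucose, and -0.31 to 0.03 for Cd3g to Cd3e with hypoxanthine against inosine. The cause was not tested.

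Deviations of same-numbered libraries correlated at -0.27 to 0.64, over 0.1 in 4 of 9 pairs. Between inosine and inosine plus hypoxanthine the values were 0.41, 0.64 and 0.02 for replicates 1, 2 and 3. Since not every pair was over 0.1, the numbers were not taken as pairs. With the replicate block 4396 genes were called against inosine and 4251 against glucose, and 7 members in each, without Lck (limma adjusted p = 0.065 and 0.075); no other member's call changed in these 2 comparisons.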

Other observations

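Neighbours of the members, taken within 100 kb on GRCm38.p6 with the window chosen after seeing the data, differed from place to place. Beside the CD3 genes on chromosome 9, Jaml, a junctional adhesion molecule of leukocytes, rose by 1.64 on the log2 scale against inosine (limma adjusted p = 0.00013) and Mpzl3 by 0.59 (0.0012), while Ube4a (-0.23, 0.18) and Atp5l (-0.06, 0.8) were not called. Beside the CD8 genes Rmnd5a rose by 0.65 (limma adjusted p = 0.00082) and Krcc1 by 0.41 (0.018). Beside Lck, Marcksl1 rose by 1.20 (limma adjusted p = 0.00021) and Ccdc28b by 0.59 (0.016), and Hdac1 fell by 0.25 (0.035). Genes called higher and lower were 4 and 0 of 9 beside the CD3 genes and 2 and 0 of 6 beside the CD8 genes. They were 2 and 1 of 13 beside Lck, 0 and 1 of 5 beside Cd247 and 1 and 0 of 2 beside Cd2. Some of these calls were of genes near 0 FPKM. On average Gm10684 was at 0.0349 and Mpzl2 at 0.177 beside the CD3 genes, Gm51752 at 0.140 beside Cd247 and Igsf3 at 0.0580 beside Cd2. The called genes named above in this paragraph averaged 5.21 FPKM or more. Beside Cd2, 0 of the neighbours averaged 1 FPKM. Over all genes 11.7% were called higher and 9.59% lower. All neighbours here are named after their values were seen.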
